A study of Arabidopsis thaliana with 2 samples.

Results

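The abscisic acid receptor genes PYR1, PYL1, PYL2, PYL3, PYL7, PYL8, PYL9 and PYL10 of Arabidopsis thaliana were examined for regions of LHY occupancy. These 8 genes, out of 27444 nuclear protein-coding genes, were chosen by locus identifier. A region was counted for a gene when its midpoint lay inside the gene or within 2000 bp of either end, and 10 of the 14718 deposited regions met this rule. The regions come from chromatin immunoprecipitation and sequencing (ChIP-seq) with an antiserum to full-length LHY. One library was from wild-type and 1 from lhy-21 seedlings, and lhy-21, an LHY knock-out, served as the control for the antiserum. Both were in the Ws background and were whole seedlings, 2 weeks old, taken 2 h after dawn, and each library pooled 9 immunoprecipitated samples. Each region is a stretch with more reads in wild-type than in lhy-21 chromatin. Values per library were not analysed here.

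Abscisic acid is the hormone of drought, salt and dormancy responses. Its receptors are soluble proteins of the PYR/PYL/RCAR family. When a receptor binds the hormone, it closes a loop over the ligand and blocks the active site of a clade A protein phosphatase 2C (PP2C), which frees SnRK2 kinases to phosphorylate transcription factors and ion channels. PYR1, PYL1, PYL2 and PYL3 form subfamily III, whose members are homodimers in the absence of hormone, while PYL7, PYL8, PYL9 and PYL10 form subfamily I, whose studied members are monomers. LHY, a clock protein with a MYB domain, is expressed around dawn and acts mainly as a repressor of transcription.

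Scores are the authors' own values for each region, on a scale that the labels do not give, and serve only to rank and describe regions within this list. The 14718 regions had a median score of 10.1, with quartiles of 5.70 and 22.3, and a median width of 285 bp. There was 1 library per genotype, so no value has a replicate check and no test between genotypes was possible. Read depth was not analysed here, and a gene with no region is not shown to lack LHY. All positions are TAIR9. The gene table holds no strand, so gene ends are called lower and higher by coordinate, and either may be the start of the gene.

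Of the 8 receptor genes, 7 had at least 1 region (87.5%, exact 95% interval 47.3 to 99.7, counting error only), and PYL10 had none. By the same rule 14348 of 27444 protein-coding genes, or 52.3%, had a region, so that the presence of a region was common among genes at large. Among genes as long as the receptor genes the share was 48.8%, and among genes with a symbol of their own it was 59.9%. The interval for the receptor genes includes each of these shares. PYR1, PYL1, PYL3 and PYL7 had 1 region each, and PYL2, PYL8 and PYL9 had 2 each. The mean was 1.25 regions per receptor gene, against 0.902 per protein-coding gene. Counting the highest score in each window, the 7 genes had a median of 13.4, with a range of 3.22 to 138, close to the median of 15.7 over all protein-coding genes with a region. The receptors were thus often near a region, but only 3 of the 7, PYL7, PYL8 and PYL9, scored above that gene median.

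**Figure D1:**
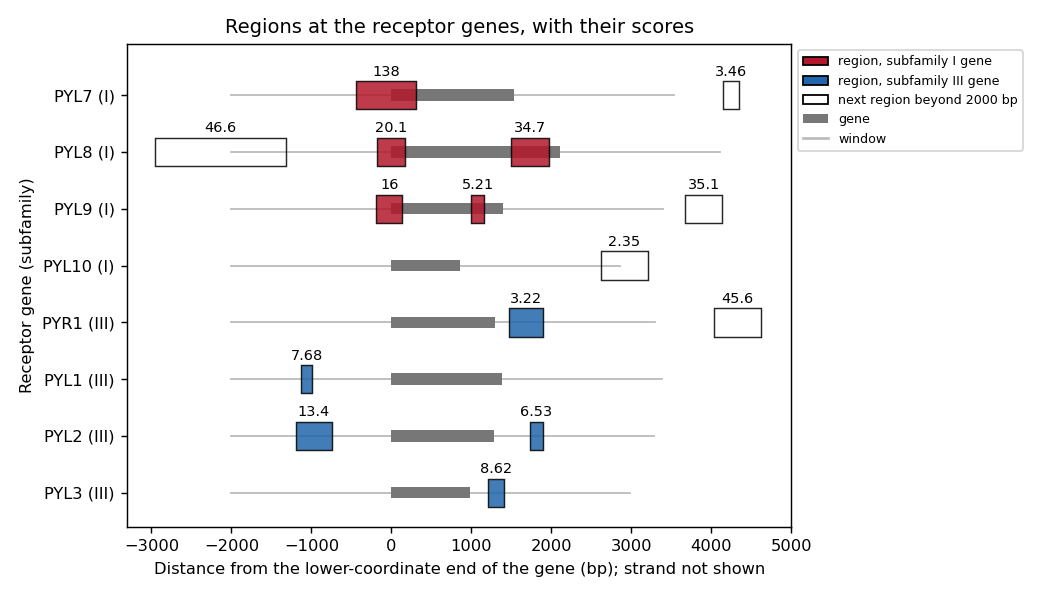
Regions at the 8 receptor genes, drawn to scale by distance in bp from the lower end of each gene, with subfamily I above subfamily III and the authors' score over each region. Open boxes are the next region with a midpoint beyond 2000 bp, where one lay within 3100 bp. Each of the 5 filled regions at PYL7, PYL8 and PYL9 overlaps its gene, and none of the 5 filled regions at subfamily III genes does. No open box overlaps its gene.

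The subfamily I gene PYL7 (AT4G01026, also RCAR2) had the strongest region of the receptors. It spanned 746 bp of chromosome 4, between 446538 and 447283, and its score of 138 placed it at rank 41 of 14718. Its midpoint was 68 bp outside the lower end of PYL7. It covered 306 bp of PYL7 and 411 bp of the adjoining gene AT4G01023, and 29 bp separate the 2 genes. The midpoint fell 38 bp inside AT4G01023, so with each region given only to its nearest protein-coding gene PYL7 had none. The same region was also in the windows of AT4G01020 and AT4G01030, 1692 and 1031 bp away, and the long non-coding RNA gene AT4G03845 was 399 bp away. Which of these genes it belongs to was not determined. Among genes with a region PYL7 scored above 99.4%.

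PYL8 (AT5G53160, listed as RCAR3 in the gene table) encodes a receptor known for its part in root growth under abscisic acid. It had a region at the lower end of the gene and another wholly inside the gene, near the higher end. The region at the lower end (chromosome 5, 21560425 to 21560776) had a score of 20.1, with its midpoint 1 bp outside the gene. The region near the higher end (21562099 to 21562576) had a score of 34.7, at rank 2208, with its midpoint inside the gene and 372 bp from that end. It was in addition 381 bp from FTSH11, the gene of a chloroplast protease, whereas the region at the lower end was in the window of no other protein-coding gene and lay 1617 bp from the long non-coding RNA gene AT5G07955. A wider and stronger region, with a score of 46.6 and a width of 1635 bp, had its midpoint 2138 bp outside the lower end and its nearer edge 1321 bp from the gene. It lay just past the limit of the rule and was in the window of AT5G53150.

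PYL9 (AT1G01360, listed as RCAR1), a receptor linked to drought survival and leaf senescence, also had 2 regions, but weaker ones. The first (chromosome 1, 141682 to 142005) had a score of 16.0, at rank 5036, and a midpoint 27 bp outside the lower end. The second (142871 to 143024) had a midpoint inside the gene, 314 bp from the higher end, and a score of 5.21. Both were also in the window of HTR12, which encodes the centromeric histone H3, at 1646 and 542 bp. A region with a score of 35.1 followed 2515 bp beyond the higher end of PYL9, in the windows of HTR12 and ETC1, a MYB-like gene of epidermal patterning.

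PYL10 (AT4G27920), whose protein can inhibit some PP2Cs without hormone, was the only receptor of the 8 with no midpoint in its window. The nearest region (chromosome 4, 13903764 to 13904347) had its midpoint 2055 bp beyond the higher end and its nearer edge at 1764 bp. Its score of 2.35 ranked 14421 of 14718, so it is among the weakest in the list. It lay in the window of MTM1. This region was just outside the rule, and the receptor midpoint farthest out among those counted was that at PYL1, 1060 bp from the gene.

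The 4 subfamily III genes all had a region, with best scores below 15.7, the median for protein-coding genes that have one. PYR1 (AT4G17870), the receptor found through resistance to the synthetic agonist pyrabactin, had a single region (chromosome 4, 9930060 to 9930478), whose midpoint was 394 bp beyond the higher end. Its score of 3.22 was the lowest of the 10, and 6.8% of all regions scored lower. For its width of 419 bp the score was low too, since 2.3% of regions within 10% of that width scored lower and their median was 15.8. No other protein-coding gene had the region in its window. A stronger one, with a score of 45.6, lay 3033 bp beyond the same end, in the window of MYC4, a transcription factor gene of jasmonate signalling.

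PYL1 (AT5G46790), the closest relative of PYR1, had a region of 133 bp (chromosome 5, 18982414 to 18982546). Its midpoint was 1060 bp outside the lower end, and its score was 7.68, at rank 9008. No other protein-coding gene shared it, but the long non-coding RNA gene AT5G06880 was nearer, at 313 bp. With a window of 1000 bp PYL1 had no region.

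PYL2 (AT2G26040) had the strongest region of subfamily III, with a score of 13.4 at rank 5873, located on chromosome 2 between 11093063 and 11093511. The midpoint was 971 bp outside the lower end of PYL2 and 157 bp inside the neighbouring gene AT2G26030. The other PYL2 region (11095994 to 11096151) had its midpoint 530 bp beyond the higher end, was shared with no protein-coding gene and scored 6.53. With regions given only to the nearest protein-coding gene, PYL2 therefore kept the weaker of the pair.

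PYL3 (AT1G73000) had 1 region (chromosome 1, 27464187 to 27464393), and its score was 8.62, at rank 8318. The midpoint was 322 bp beyond the higher end of PYL3 and 238 bp from PS2, a phosphatase gene of the phosphate starvation response. BGAL17, a beta-galactosidase gene, was 1803 bp away. PYL3 had no region when each was given only to its nearest protein-coding gene.

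**Figure D2:**
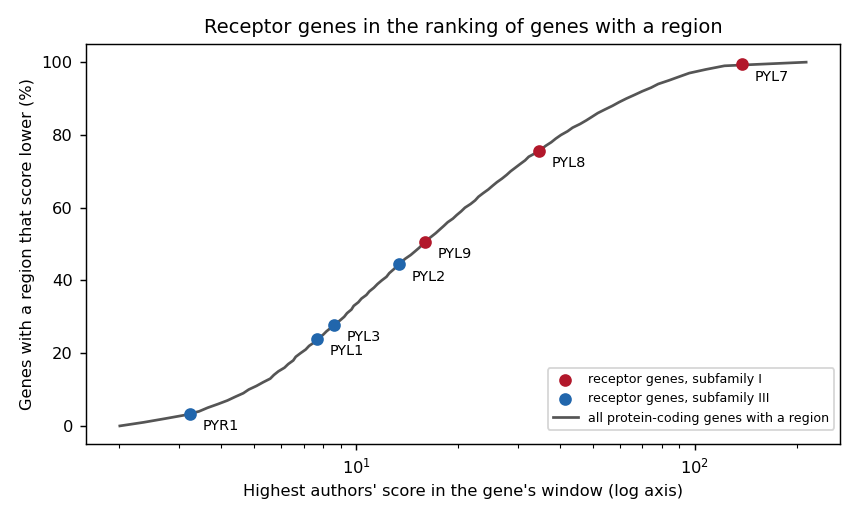
Highest authors' score in the window (log axis) against the percent of genes with a region that score lower. Points are the 7 receptor genes with a region, by subfamily, and the line is all 14348 protein-coding genes with a region. PYL7 stands at 99.4%, PYL8 at 75.6%, PYL9 at 50.6%, PYL2 at 44.4% and PYR1 at 3.4%.

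Set side by side, the subfamilies held 5 regions each. The best scores at PYL7, PYL8 and PYL9 were 16.0 to 138 (median 34.7), and those at the 4 subfamily III genes were 3.22 to 13.4 (median 8.15). These ranges did not overlap, though PYL10 of subfamily I had no value by this rule and the weaker PYL9 region, at 5.21, fell within the range of subfamily III. With a window of 3000 bp or with any overlap PYL10 had a score of 2.35, below all 4 subfamily III genes, and the ranges then overlapped. Neighbours in the order of best scores, such as PYL9 at 16.0 and PYL2 at 13.4, or PYL3 at 8.62 and PYL1 at 7.68, have no error by which to rank them, because the list has no replicates. With 4 genes in each subfamily no test of the difference was made.

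The positions of the regions are given as a description, with no test. All 5 subfamily I regions overlapped their receptor gene, whereas the nearest edges of the 5 subfamily III regions were 185 to 994 bp away. This holds for the window of 2000 bp, in which PYL10 had no region. A window of 3000 bp added a region at each of PYL7, PYL8, PYL9 and PYL10. The nearest edges of these added regions were 1321 to 2617 bp from the gene. Over both subfamilies 5 of 10 regions overlapped the gene, or 50.0%, against 37.9% of all pairs of a protein-coding gene and a region in its window. A midpoint inside the gene was found for 2 of the 10, or 20.0%, against 21.1% of all such pairs. A midpoint within 100 bp of a gene end was found at PYL7, PYL8 and PYL9 (3 of 8 receptor genes), against 15.3% of all protein-coding genes. In each of the 3 it was the lower end, which is not shown to be the start of the gene. The distance of 100 bp was chosen after the positions were seen. Of the 10 regions, 6 were in the window of another protein-coding gene as well, and 3, at PYL2, PYL3 and PYL7, were centred nearer to that other gene. The other 4, at PYR1, PYL1, PYL2 and PYL8, were in the window of no other protein-coding gene, though those at PYL1 and PYL8 were also within 2000 bp of a long non-coding RNA gene.

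**Figure D3:**
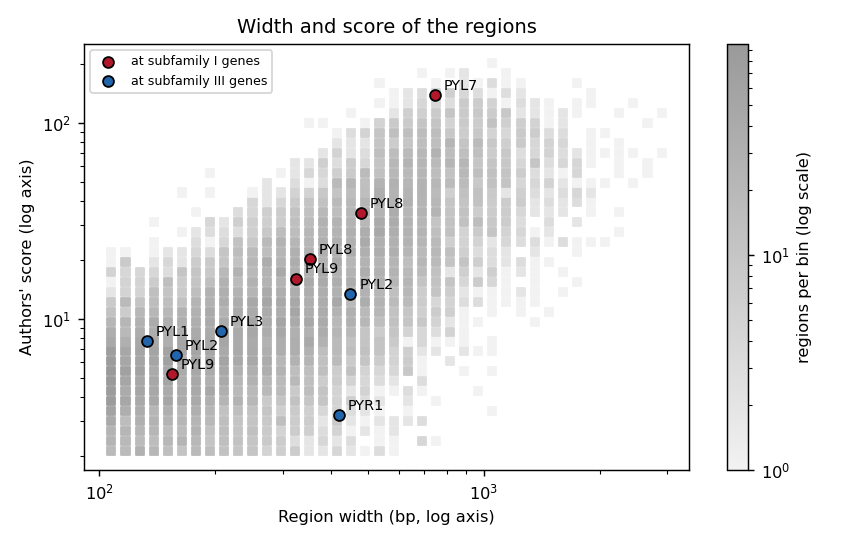
Width in bp against the authors' score of regions (both log axes). Grey squares are all 14718 regions in bins, darker where a bin holds more, and points are the 10 receptor regions. PYL7 lies near the upper edge of the cloud for its width of 746 bp and PYR1 near the lower edge for 419 bp.

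Wider regions had higher scores in the whole list, at a Spearman rho of 0.73 over 14718 regions that all come from the same pair of libraries. The receptor regions were 133 to 746 bp wide with a median of 338 bp, and their median score was 11.0. For its width the PYL7 region remained strong, as 98.7% of regions within 10% of 746 bp scored lower. The other receptor regions apart from that at PYR1 scored above 34.8% to 80.3% of regions of like width.

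When weak regions were left out, the receptors that remained followed directly from the best scores given above. Above the median score of all regions, 4 of the 8 genes had a region, PYL2, PYL7, PYL8 and PYL9, against 34.5% of protein-coding genes. Among the strongest 10% of regions only PYL7 had one, or 1 of 8, against 8.71%. Among the 1000 strongest, which scored at least 58.0, PYL7 was again the only one, against 6.07% of protein-coding genes.

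**Figure D4:**
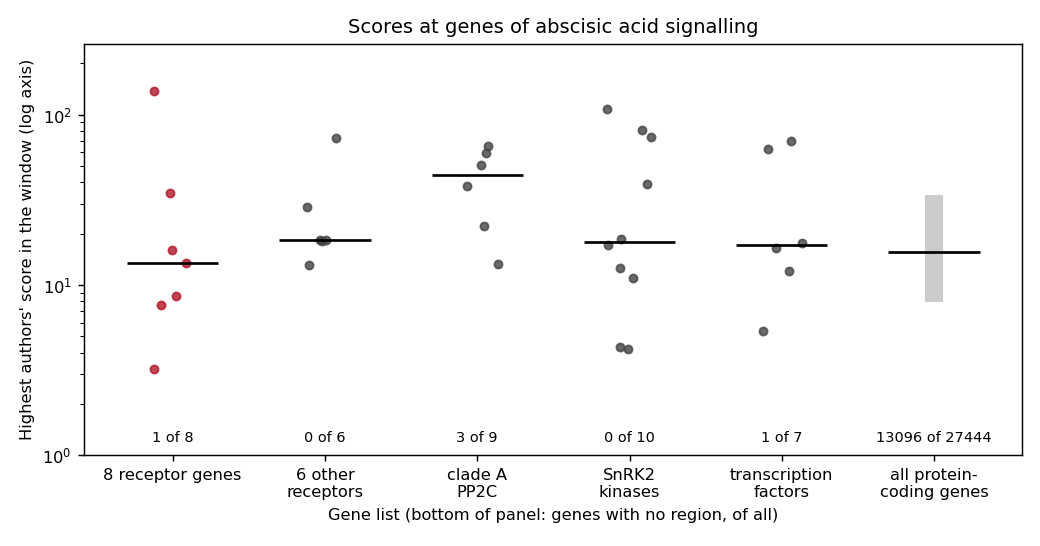
Highest authors' score in the window (log axis) for the receptor genes and the other listed genes, which include whole phosphatase and kinase families. Each point is a gene with a region, the short line is the median of the list, the grey bar spans the quartiles over all protein-coding genes, and the numbers at the bottom count the genes with no region. PYL7 is the highest point of all 5 lists, though its region is centred inside the adjoining gene AT4G01023. The median of the 7 receptor genes with a region, 13.4, is the lowest of the medians.

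The other receptor, clade A PP2C, SnRK2 kinase and transcription factor genes, here called the other signalling genes, were read by the same rule. The phosphatase and kinase lists hold whole families, and whether each member acts in the abscisic acid response was not examined. Of 32 other signalling genes 28 had a region, also 87.5%, against the 52.3% of all protein-coding genes, and the median of their best scores was 18.5. The 8 receptor genes are shorter, with a median length of 1336 bp, against 2581 bp for the other signalling genes. They had a mean of 1.25 regions each, against 2.31 per gene for the other 32. Among these 32, the 6 other receptor genes were shorter still, with a median length of 1076 bp, yet had a mean of 3.17 regions. A region shared by listed genes counts for each of them in these means. The distinct regions were 17 for the 6 other receptor genes, 72 for the 32 genes and 10 for the 8 receptor genes. A relation between length and the number of regions was not tested. With 40 genes in view PYL7 had the highest score. The region behind that score was centred inside AT4G01023, and with nearest protein-coding genes only PYL7 had none.

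Among the other receptors all 6 had a region, with a median best score of 18.4, led by PYL5 at 72.7 and PYL6 at 28.5. PYL11 and PYL12 are neighbours and share their strongest region, with a score of 18.4. Of the 9 clade A PP2C genes, 6 had a region, with ABI2 at 65.5 and HAI2 at 59.3 the highest. The median of the 6 was 44.4. All 10 SnRK2 kinase genes had a region. SnRK2.2, one of the kinases central to the hormone response, scored 108, SnRK2.9 scored 80.8, and the median was 17.9. Of the 7 transcription factor genes 6 had a region, with a median of 17.1, led by ABF1 at 70.3 and by ABI5, of seed and early seedling responses, at 62.6. The 4 genes with none, named after their values were seen, were the phosphatase genes HAB2, AHG1 and HAI3 and the transcription factor gene ABI4.

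**Figure D5:**
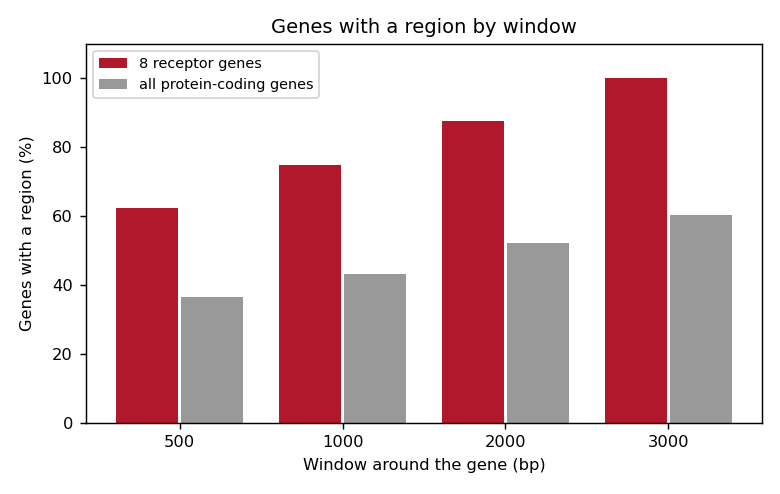
Share of genes with a region midpoint inside or within the window on the x axis (bp), for the 8 receptor genes beside all protein-coding genes. The receptor share is 62.5% at 500 bp and 100% at 3000 bp, and the share of all genes is 36.5% and 60.3%.

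The window set which receptors counted. Within 500 bp 5 of 8 had a region (62.5%), which were PYR1, PYL3, PYL7, PYL8 and PYL9, against 36.5% of protein-coding genes. Within 1000 bp there were 6, with PYL2 added, against 43.2%, and within 3000 bp all 8, against 60.3%. With each region given only to its nearest protein-coding gene, 5 of 8 receptors had one, PYL1 included, against 34.4% of protein-coding genes. With any overlap of the region and the window all 8 had one, PYL10 included, against 53.8%, and with regions merged within 200 bp 7 had one, against 52.1%. Among the genes with a symbol of their own, 59.9% had a region by the rule of 2000 bp. The regions that a window of 3000 bp added included that near PYL10, and the best score at PYL8 was then 46.6 and that at PYL9 35.1.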

How the data were processed

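The submitters' processing notes name Bowtie, MACS2 (2.0.10.09132012) and the TAIR9 build. The deposited file is 1 list of regions with the authors' score for each. The caller's threshold, read filters and depth are not given in the sources used here. Gene positions came from a RefSeq table of TAIR10.1. Both builds have the same nuclear sequence, but gene models may differ, so no gene coordinates are given. As a check, midpoints were moved by 500 and 1000 bp to either side, and on all 5 chromosomes the share inside genes was lowest without a shift.

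The members and lists were chosen with earlier results of these data known. By rule the named genes are the 8 receptors, protein-coding genes sharing their regions and the 2 highest scores of each other list. Genes named beyond these (non-coding genes, genes at regions past 2000 bp, PYL11, PYL12 and list members with no region) were chosen after their values were seen. The assignment was tested on simulated data. Intervals are exact (Clopper-Pearson, scipy 1.17.1). No test between genotypes or lists was made. A planned motif search was not run, as no sequence was used here. Alternatives were windows of 500, 1000 and 3000 bp, overlap in place of midpoints, stronger regions, nearest genes, merging within 200 bp and other gene backgrounds.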

Additional observations from a re-analysis of the deposited data

How the results depend on the processing

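No paired analysis was possible because each genotype has 1 library, so no replicate could be left out either. The number of receptor genes with a region, 7, was 5 to 8 with other windows, with any overlap, with nearest protein-coding genes only and with regions merged. It was 4 above the median score, 1 in the strongest 10%, 1 in the strongest 1000 and 3 within 100 bp of a gene end, a distance added after seeing the data. In these 4 settings subfamily I counted 3, 1, 1 and 3, and subfamily III counted 1, 0, 0 and 0. Subfamily III counted 2 within 500 bp. The 28 other signalling genes became 9, 8 and 12 in the strongest 10%, the strongest 1000 and within 100 bp. The share of all protein-coding genes was 34.5%, 8.71%, 6.07% and 15.3% in these 4 settings and 34.4% with nearest protein-coding genes only. The median best score of 13.4 was 16.0, 14.7 and 11.0 with windows of 500, 1000 and 3000 bp, 11.0 with any overlap, 7.68 with nearest protein-coding genes only, 8.62 when the region closest to an end was taken, 25.3 above the median score, 138 in the strongest 10% and the strongest 1000, and 20.1 within 100 bp. The highest receptor score of 138 became 34.7 with nearest protein-coding genes only, since the PYL7 region then went to AT4G01023. Stricter score limits lower these counts by construction. For the 7 single receptor genes, 24 of 77 combinations of gene and alternative left no region and so no score. Of the 93 remaining values for single genes and lists, 74 were unchanged or, for counts, within 1.5 times, and 19 moved.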

Other observations

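Farther from the receptor genes, some stronger regions lay at genes of other pathways. The region of rank 66, with a score of 126, was centred 9265 bp beyond the higher end of PYL10, in the window of CRF4, a cytokinin response factor gene. PYR1 and PYL1 both lie near genes of MYC transcription factors of jasmonate signalling. At 3033 and 6137 bp beyond PYR1 regions with scores of 45.6 and 22.0 were in the window of MYC4, the second also in that of AGD8. Another region in the windows of MYC4 and AGD8, at 7092 bp, scored only 4.10. The regions in the window of MYC3 nearest to PYL1, at 5199 and 5434 bp, scored 4.17 and 6.43. Both scored lower than the region counted for PYL1, at 7.68, and were also in the windows of AT5G46770 and AT5G46780. No relation between these regions and the receptor genes was tested.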
